A study of Mus musculus with 48 samples.

Results

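The members are 6 genes of the mouse IGHV2 family, IGHV2-2, IGHV2-3, IGHV2-4, IGHV2-5, IGHV2-6 and IGHV2-9, taken as every sequence whose deposited V call carries one of these gene names. They are 6 of the 148 IGHV genes called and hold 228648 of 4834214 distinct sequences in 48 libraries. The study transferred gut microbiota to C57BL/6 mice and read the heavy chain of the B cell receptor (BCR) from bulk RNA of the lacrimal gland (LG) and the spleen of each mouse. The NOD-FMT group (10 mice) received by gavage a pool of feces from 30 NOD.B10.H2b mice, a strain with autoimmune dry eye disease, that were older than 20 weeks. The PBS-T group (9 mice) received phosphate-buffered saline on the same schedule. Both groups were gavaged from 5 weeks of age, after a course of ampicillin, vancomycin and metronidazole, and BCR control mice (5 mice, NC1 in the labels) were untreated. Gavage, antibiotics and any other difference between the BCR control mice and the others cannot be told apart, the age of the BCR control mice is not given in the sources used here, and p-values treat the mice as the replicates.

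The heavy chain variable region is joined from a V, a D and a J gene segment, and the join encodes the third complementarity determining region (HCDR3), the most variable loop of the antigen binding site. The IGHV2 genes, also called the Q52 family, lie interspersed with IGHV5 genes at the end of the IGHV cluster nearest the D segments and are well known for their early and frequent use in mouse B cell development. IgM and IgD mark B cells that have not switched their constant gene, whereas IgA, the isotype secreted at mucosal surfaces and in tears, and IgG follow switching, and mutations away from the germline V gene accumulate in activated B cells.

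Each library was read with unique molecular identifiers, so that a count stands for a collapsed RNA molecule, and a clonotype is defined by V gene, J gene and HCDR3 amino acids. LG libraries held 40513 to 360216 counts and 560 to 17213 clonotypes, with PBS-T replicate 5 at the top and all other LG libraries at 2504 or fewer. Median LG counts were 164166.5 in NOD-FMT, 57793 in PBS-T and 75590 in BCR control mice. In LG values by counts or with a minimum of counts, depth and group therefore cannot be told apart. Spleen libraries held 86717 to 2302185 counts and 23002 to 593820 clonotypes. Unless stated otherwise, sequences present in 3 or more mice of a tissue were removed, which took away 9.83% of all LG counts and 9.84% of all spleen counts. By library the share removed was 0.143% to 39.8% in the LG (median 1.06%, highest in PBS-T 5, without which 5.55% of LG counts were removed) and 4.94% to 66.6% in the spleen (median 8.24%, highest in PBS-T 6). Counts and isotypes of named clonotypes and HCDR3 patterns, and the numbers of libraries that held them, are as deposited, with shared sequences kept. In bulk RNA fewer cells of a clone and less RNA per cell cannot be told apart.

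All members map to the minus strand of chromosome 12 (GRCm38/mm10), within the first 19 of 113 V genes counted from the J segments, a stretch with 9 Ighv2 and 10 Ighv5 genes. Ighv2-2 (chr12:113588267-113588702) was the 2nd V gene from the J segments, 158.4 kb from Ighj1. Ighv2-3 (chr12:113611187-113611617) was the 4th, Ighv2-4 (chr12:113653291-113653724) the 6th and Ighv2-5 (chr12:113685482-113686045) the 8th. Ighv2-9 (chr12:113879096-113879541) was the 19th, 449.3 kb from Ighj1. The name IGHV2-6 covered 2 genes, since allele 01 of the call matched Ighv2-6-8 (chr12:113796138-113796567), the 14th V gene, and allele 03 matched Ighv2-6 (chr12:113716670-113717103), the 10th.

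The germline V segments below run from framework 1 up to and including the conserved cysteine codon, read 5′ to 3′ from the GENCODE transcripts of the GRCm38 annotation. They are shown because the check of each call against its nearest GRCm38 gene rests on them. The deposited calls and mutation counts rest on the alleles that the authors assigned. Capitals mark bases that differ from IGHV2-2.
IGHV2-2 (Ighv2-2): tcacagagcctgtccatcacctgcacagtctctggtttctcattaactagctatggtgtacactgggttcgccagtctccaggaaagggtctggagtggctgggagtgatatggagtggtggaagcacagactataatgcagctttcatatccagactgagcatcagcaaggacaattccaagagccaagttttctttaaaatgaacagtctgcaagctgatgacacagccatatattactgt
IGHV2-3 (Ighv2-3): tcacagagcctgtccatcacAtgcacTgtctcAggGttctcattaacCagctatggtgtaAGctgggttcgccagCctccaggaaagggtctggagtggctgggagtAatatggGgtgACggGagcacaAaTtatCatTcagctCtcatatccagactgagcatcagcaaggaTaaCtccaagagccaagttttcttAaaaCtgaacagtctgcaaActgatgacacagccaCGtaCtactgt
IGHV2-9 (Ighv2-9): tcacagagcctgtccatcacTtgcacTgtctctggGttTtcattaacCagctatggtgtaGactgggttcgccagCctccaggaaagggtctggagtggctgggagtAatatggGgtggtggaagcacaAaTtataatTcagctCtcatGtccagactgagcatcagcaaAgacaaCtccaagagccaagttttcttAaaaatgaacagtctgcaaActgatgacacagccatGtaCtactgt
IGHV2-6 allele 01 (Ighv2-6-8): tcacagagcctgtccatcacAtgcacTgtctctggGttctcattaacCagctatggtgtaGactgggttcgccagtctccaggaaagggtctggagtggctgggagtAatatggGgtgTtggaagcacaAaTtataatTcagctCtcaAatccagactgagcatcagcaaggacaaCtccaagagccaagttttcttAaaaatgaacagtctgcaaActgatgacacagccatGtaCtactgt
IGHV2-6 allele 03 (Ighv2-6): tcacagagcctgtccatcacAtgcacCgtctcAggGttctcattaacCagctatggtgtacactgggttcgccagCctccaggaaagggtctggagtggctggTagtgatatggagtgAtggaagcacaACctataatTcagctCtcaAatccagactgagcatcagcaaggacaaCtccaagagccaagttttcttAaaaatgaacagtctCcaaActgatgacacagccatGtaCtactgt
IGHV2-3 differed from IGHV2-2 at 26 bases of this stretch (89.3% identity), IGHV2-9 at 20 and the IGHV2-6 alleles at 18 and 19. IGHV2-4 and IGHV2-5, not printed, differed from IGHV2-2 at only 5 and 8 bases. The closest pair across these genes, Ighv2-2 and Ighv2-4, was 97.9% identical, and 99.4% or more of the sequences called as any member other than IGHV2-6 were nearest to the gene of that name.

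The 3′ ends of the segments set the first HCDR3 residues, and are shown with the bases after the cysteine codon in capitals.
IGHV2-2: acagccatatattactgtGCCAGAAA
IGHV2-3: acagccacgtactactgtGCCAA
IGHV2-4 and IGHV2-5: actgccatatactactgtGCCAAAAA
IGHV2-6 allele 01: acagccatgtactactgtGCC
IGHV2-6 allele 03: acagccatgtactactgtGCCAGACA
IGHV2-9: acagccatgtactactgtGCCAAACA
In the spleen the residues AK opened 78.5% of IGHV2-3, 77.1% of IGHV2-4, 79.8% of IGHV2-5 and 88.7% of IGHV2-9 clonotypes.

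The IGHV2-6 call was incomplete for its own locus. Of the sequences nearest to Ighv2-6, 77.5% carried the call IGHV2-6-1 and were not counted as members. Only 0.0761% of the 21016 sequences called IGHV2-6-1 were without mutation as deposited, yet 76.9% were identical to Ighv2-6 over the segment compared. Values for IGHV2-6 therefore describe the call, chiefly 7591 sequences of allele 01 and 5538 of allele 03, and not a single gene. Among the IGHV2-6-1 sequences identical to Ighv2-6, the 4 commonest HCDR3 starts of 9 bases all held the whole germline end of Ighv2-6 printed above, led by gccagacat at 70.3%. None of the 4 commonest starts among sequences called allele 03 held it, and the commonest was gccagagat at 6.07%.

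Members were used in the same order in every spleen. IGHV2-2 took 1.70% ± 0.165 of spleen clonotypes (SD, n = 24), IGHV2-3 1.01% ± 0.152 and IGHV2-9 0.750% ± 0.0903. IGHV2-5 followed with 0.562% ± 0.0613, then IGHV2-6 with 0.288% ± 0.0361 and IGHV2-4 with 0.102% ± 0.0123. Each gene exceeded the next in 24 of 24 spleens, by a median factor of 1.73, 1.32, 1.29, 1.98 and 2.88 in that order, so no neighbours overlapped within a spleen. The order did not follow the distance from the J segments, as IGHV2-9 is the farthest member and IGHV2-4 the third nearest.

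**Figure D1:**
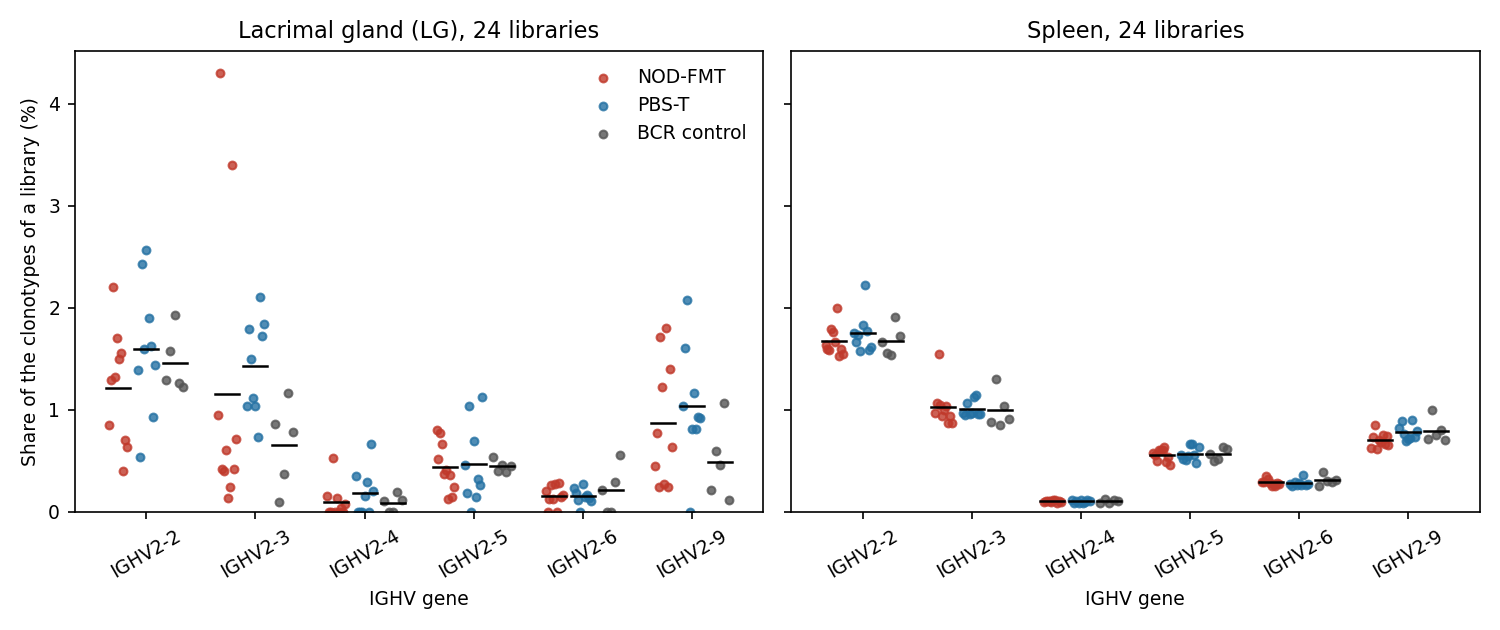
Share of the clonotypes of a library (%, y axis) held by each member (x axis) in the LG (left) and the spleen (right), where each point is a library, colors are groups and short lines are group means. Spleen points lie close together in the order IGHV2-2, IGHV2-3, IGHV2-9, IGHV2-5, IGHV2-6 and IGHV2-4, whereas LG points spread up to 4.30% for IGHV2-3 in a NOD-FMT mouse.

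In the LG the same genes led, with far wider spread. IGHV2-2 held 1.41% ± 0.562 of LG clonotypes (SD, n = 24), and it exceeded IGHV2-3 in 16 of 24 libraries and fell below it in 8. IGHV2-3 exceeded IGHV2-9 in 14 libraries and fell below it in 9. IGHV2-9 exceeded IGHV2-5 in 15 and fell below it in 7. Only IGHV2-5 against IGHV2-6 was near uniform, 19 against 1. The plot of clonotype shares by tissue shows the overlap of the LG values and the narrow bands of the spleen. IGHV2-4 was seen in the LG of 13 of 24 mice, IGHV2-6 in 19, IGHV2-5 and IGHV2-9 in 23, and IGHV2-2 and IGHV2-3 in all 24, and an LG library of 560 clonotypes holds too few to resolve the rarer members.

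Across the 24 spleens, the IGHV genes whose share followed that of the summed members most closely were IGHV2-6-1 (Pearson r = 0.697), IGHV3-4 (r = 0.695) and IGHV7-1 (r = 0.633), of 107 genes ranked. These points share libraries and their depth, so the values are a description.

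The first question was whether transfer changed the use of these genes. In the LG the members together took 2.45%, 3.73% and 6.89% of clonotypes in NOD-FMT mice (lowest, median, highest), 2.72%, 4.65% and 7.16% in PBS-T mice and 2.66%, 3.23% and 4.36% in BCR control mice. The groups overlapped widely. NOD-FMT minus PBS-T was -0.33 on the log2 scale (exact permutation test, two-sided, p=0.102), with means of 3.93% ± 1.31 and 4.87% ± 1.21. In the spleen the members took 3.87%, 4.33% and 4.93% in NOD-FMT, 4.12%, 4.47% and 5.07% in PBS-T and 4.05%, 4.36% and 4.86% in BCR control mice (p=0.336 for NOD-FMT against PBS-T, exact permutation test). Leaving out NOD-FMT 10 or PBS-T 4 brought the LG difference below the threshold, at -0.43 in each case, so whether it passed rested on single mice. With clonotypes of at least 2 counts the LG difference was -0.76 (exact permutation test, p=0.00829), and by unfiltered counts it turned to 0.09 (p=0.912, exact permutation test). In the spleen it turned from -0.05 to 0.22 by counts and 0.38 by unfiltered counts, and neither passed the threshold. LG depth differed between the groups, so in these LG settings depth and group cannot be told apart.

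Gene by gene, 0 of 6 members were called between NOD-FMT and PBS-T in the LG (edgeR, adjusted p below 0.05), where 4% of all 100 genes tested were called. In the LG, 0 of 6 were called for NOD-FMT against BCR control, with 5% of all genes called, and 0 of 6 for PBS-T against BCR control, with 0% called. In the spleen 0 of 6 were called in each comparison, with 0.885% of 113 genes called for NOD-FMT against PBS-T and 0% in the comparisons with BCR control, which share the BCR control mice. DESeq2 also called 0 of 6 in all these comparisons. At an unadjusted p under 0.05 the only member in this fit was IGHV2-9 in the spleen, 0.617%, 0.694% and 0.846% in NOD-FMT (lowest, median, highest) and 0.689%, 0.762% and 0.9004% in PBS-T. Its log2 fold change was -0.15 (SE 0.07, edgeR adjusted p = 0.476), and it turned to 0.28 by counts. In the LG other definitions of a clonotype moved the values for NOD-FMT against PBS-T. Without near neighbours IGHV2-3 stood at -1.06 (SE 0.37, edgeR adjusted p = 0.0556), against -0.22 with all clonotypes. On log2 shares of all clonotypes it stood at -0.96 (exact permutation test, p=0.0729, adjusted p = 0.28). NOD-FMT 7 (3.40%) and NOD-FMT 10 (4.30%) lay above every PBS-T mouse (0.729% to 2.11%). NOD-FMT 1 (0.947%) lay within the PBS-T range and all other NOD-FMT mice below it. With clonotypes of at least 2 counts IGHV2-2 stood at -0.82 and IGHV2-4 at -1.75 (edgeR adjusted p = 0.138 for each). Log2 fold changes of the members spanned -1.08 to -0.05 in the LG and -0.15 to 0.04 in the spleen for NOD-FMT against PBS-T, with SE up to 0.80 and 0.10. The LG libraries thus leave room for larger differences than the spleen libraries do.

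Counts, which weigh a clonotype by its RNA, gave another picture for IGHV2-3. IGHV2-3 took 1.18%, 1.84% and 4.25% of spleen counts in NOD-FMT mice (lowest, median, highest) and 1.08%, 1.69% and 2.92% in PBS-T mice. In BCR control mice it took 0.681%, 1.01% and 1.50%. Both gavaged groups overlapped BCR control only at the lower end of their range. In the fit of counts in place of clonotypes IGHV2-3 rose in NOD-FMT against BCR control, log2 fold change 1.18 (SE 0.32, edgeR adjusted p = 0.0429), the only member called where 2.59% of 116 genes were. No member was called by counts in the spleen for PBS-T against BCR control (0% of genes) or for NOD-FMT against PBS-T (2.59%), nor in the LG, where 2.8% of 107 genes were called for PBS-T against BCR control and 0% in the comparisons with NOD-FMT. The value for PBS-T against BCR control was 0.85 (SE 0.32, edgeR adjusted p = 0.167), and that for NOD-FMT against PBS-T was 0.33 (SE 0.26, adjusted p = 0.615). By clonotypes the NOD-FMT and BCR control means were 1.03% ± 0.193 (n = 10) and 0.994% ± 0.187 (n = 5), and that comparison was not called.

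The largest member clonotype of a spleen was an IGHV2-3 clonotype in 9 of 10 NOD-FMT mice, in 8 of 9 PBS-T mice and in 1 of 5 BCR control mice. In NOD-FMT 1, 5 and 10 and PBS-T 1, 3 and 4 it carried IGHJ1 and an HCDR3 of 14 residues that began with AKQ and ended with WYFDV, a form which was noticed in the values and is described without a test. This form reached 100 counts in the spleens of 8 of 10 NOD-FMT mice and 4 of 9 PBS-T mice, and stayed at 8 counts or fewer in all 5 BCR control mice. As a share of IGHV2-3 counts as deposited it stood at 0.00867%, 8.41% and 42.1% in NOD-FMT (lowest, median, highest), at 0%, 0.0495% and 39.1% in PBS-T and at 0%, 0.0848% and 0.202% in BCR control. It was 96.2% IgM in NOD-FMT and 97.2% in PBS-T, and IGHV2-3 held at most 1 count of it in any LG library.

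The nucleotide HCDR3 of the main clonotype of the form is printed for 6 of the 7 spleens with the most counts of the form (all but NOD-FMT 2), to show how far mice differed. Capitals mark bases that differ from NOD-FMT 5.
NOD-FMT 5, AKQEAGTIYWYFDV: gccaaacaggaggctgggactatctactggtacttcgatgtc
NOD-FMT 10, AKQFISTVAWYFDV: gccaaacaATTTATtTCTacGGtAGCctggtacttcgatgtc
NOD-FMT 1, AKQYYGSIYWYFDV: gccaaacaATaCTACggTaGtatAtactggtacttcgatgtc
PBS-T 3, AKQLISVADWYFDV: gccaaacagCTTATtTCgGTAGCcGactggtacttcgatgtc
PBS-T 4, AKQEYGSSHWYFDV: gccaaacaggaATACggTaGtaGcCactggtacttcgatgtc
PBS-T 1, AKQYYGSSHWYFDV: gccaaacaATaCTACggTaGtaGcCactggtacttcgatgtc
The shared start gccaaaca runs past the germline IGHV2-3 end, gccaa, by the bases aca, and the shared end from ctggtac on is found in Ighj1. In the 12 spleens with 100 counts or more the main clonotype had different HCDR3 residues in each, so the nucleotide forms had to differ. They differed from that of NOD-FMT 5 at 7 to 14 of 42 bases. Some other pairs lay closer to each other, such as PBS-T 1 and PBS-T 4 or PBS-T 1 and NOD-FMT 1 among the forms printed. Libraries held up to 33 clonotypes of the form, yet a single clonotype dominated in several. In NOD-FMT 5 AKQEAGTIYWYFDV made 6182 of 7005 counts, and in PBS-T 4 AKQEYGSSHWYFDV made 1389 of 1527. In NOD-FMT 10 AKQFISTVAWYFDV made 2818 of 5305. Between 4.76% and 46.9% of the sequences of the form in these spleens were without mutation. The 5 other members together held at most 37 counts of the form in a spleen. In the LG they held it in 2 of 9 PBS-T mice, at up to 68 counts and 0% IgM, and in no mouse of the other groups.

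Another recurrent IGHV2-3 clonotype, ANSNYAMDY with IGHJ4, was present in 8 of 10 NOD-FMT, 4 of 9 PBS-T and 2 of 5 BCR control spleens. It reached 2714 counts and 29.6% of IGHV2-3 counts as deposited in a NOD-FMT spleen, 2244 counts in a PBS-T spleen and at most 2 counts in BCR control. In the LG it was found in PBS-T 9 alone, with 1279 counts, 76.3% of the IGHV2-3 counts of that library and 100% IgM. AKGDYGSSWFAY with IGHJ3 was present in 7 of 10, 5 of 9 and 3 of 5 spleens and reached 1306, 437 and 159 counts. These clonotypes were also chosen after their values were seen.

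Mutation in IgM also differed between groups for IGHV2-3. Sequences identical to the assigned germline V allele made 63.8% ± 10.3 of IGHV2-3 IgM sequences in NOD-FMT mice (SD, n = 10) and 65.98% ± 5.48 in PBS-T mice (n = 9), below the means of 76.1% to 85.1% of IGHV2-2, IGHV2-5, IGHV2-6 and IGHV2-9 in these groups. In BCR control mice IGHV2-3 stood at 84.97% ± 2.65 (n = 5) and these members at 79.0% to 84.1%, so IGHV2-3 was not lower there. The IGHV2-3 values were 46.6%, 66.5% and 76.97% in NOD-FMT (lowest, median, highest), 58.3%, 65.9% and 74.8% in PBS-T and 81.9%, 85.3% and 88.3% in BCR control. All 19 gavaged mice lay below all 5 BCR control mice. This comparison was chosen after the values were seen.

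Over the 83 IGHV genes with at least 20 IgM sequences in every spleen, IGHV2-3 had the lowest difference of any gene in both comparisons with BCR control. For PBS-T the difference was -19.0 percentage points (exact permutation test, p=0.0004995, the smallest that 2002 splits allow, adjusted p = 0.0415 over the 83 genes), and it was the only gene called, 1.2%, as well as the only gene for which all PBS-T mice lay below all BCR control mice, 1.2%. For NOD-FMT it was -21.2 percentage points (exact permutation test, p=0.00167, adjusted p = 0.0691), with 0% of genes called, and the groups did not overlap for 2.41% of genes. The median difference over all 83 genes was -1.79 percentage points for NOD-FMT and -3.35 for PBS-T. NOD-FMT and PBS-T differed by -2.20 percentage points (adjusted p = 0.881, exact permutation test). The other members tested, IGHV2-2, IGHV2-5, IGHV2-6 and IGHV2-9, differed from BCR control by -4.95 to 2.09 percentage points, and none was called.

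**Figure D2:**
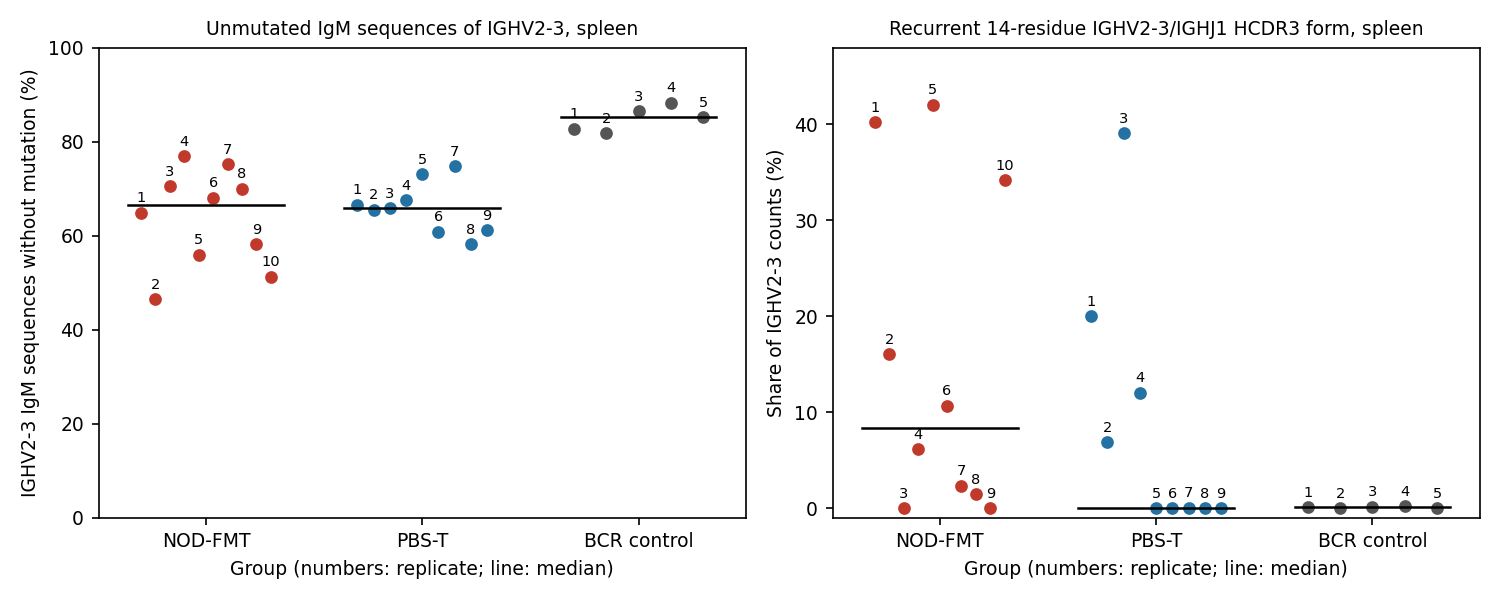
Left, percent of IGHV2-3 IgM sequences in the spleen without mutation (y axis) by group (x axis). Right, percent of IGHV2-3 spleen counts held by the 14-residue IGHJ1 form. Points are mice with their replicate number and lines are medians. The 5 BCR control mice lie between 81.9% and 88.3% on the left and at or below 0.202% on the right, and on the left all NOD-FMT and PBS-T mice lie at 76.97% or lower.

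The plot of unmutated IgM by group also holds the 7 gavaged mice in which the form made 0.0495% or less of IGHV2-3 counts, NOD-FMT 3 and 9 and PBS-T 5 to 9. They ranged from 58.2% (NOD-FMT 9) to 74.8% (PBS-T 7), within the 46.6% to 76.97% of the 12 mice with 100 counts or more, and below all BCR control mice. Without the form the differences from BCR control were -16.5 percentage points for NOD-FMT (adjusted p = 0.0553) and -16.3 for PBS-T (adjusted p = 0.124, exact permutation tests). With each clonotype taken once, as unmutated if any of its IgM sequences was, they were -4.98 and -4.01 and were not called. Without any 1 mouse the PBS-T difference was -20.1 to -18.02 percentage points, with an adjusted p of 0.0645 or 0.116 (exact permutation tests), the smallest that a single gene of 83 can reach with so few splits, so the call could not be reached in these fits and they say nothing on its stability.

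In the LG, single clonotypes held large parts of the IGHV2-3 counts of some mice. As deposited, IGHV2-3 took 0.000647%, 0.336% and 29.9% of LG counts in NOD-FMT mice (lowest, median, highest), 0.415%, 0.759% and 1.47% in PBS-T and 0.00616%, 0.106% and 0.384% in BCR control mice. NOD-FMT 7 (29.9%), NOD-FMT 10 (9.78%) and NOD-FMT 1 (2.59%) lay above all mice of the other groups and NOD-FMT 5 below them. The other 6 NOD-FMT mice lay within the joint range of both other groups. Of these, NOD-FMT 3, 4, 6 and 8 lay below every PBS-T mouse. Removal of shared sequences cut the clonotype described next from 95359 to 17944 counts in NOD-FMT 7 and from 14806 to 620 in NOD-FMT 10, and left IGHV2-3 at 9.45% and 1.84% there. In the fit of those counts the log2 fold change of NOD-FMT against BCR control was 3.62 (SE 1.51, edgeR adjusted p = 0.238) and that against PBS-T 0.84 (SE 1.05, adjusted p = 0.724).

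**Figure D3:**
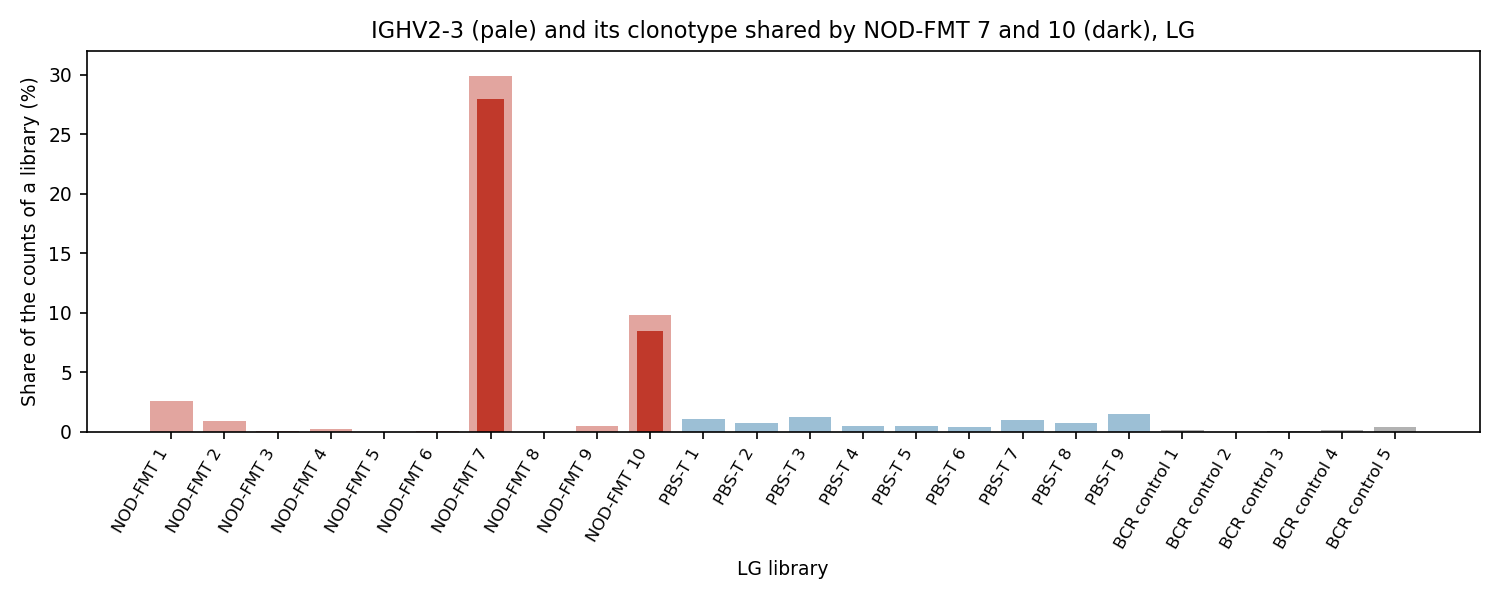
Percent of the counts of each LG library (y axis) held by IGHV2-3 (pale bars) and by its clonotype AKGGYYGSSSWFAY (dark bars), for 24 mice (x axis) colored by group. The clonotype makes 27.9% of all counts in NOD-FMT 7 and 8.45% in NOD-FMT 10, and is not visible elsewhere.

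The same clonotype, IGHV2-3 with IGHJ3 and the HCDR3 AKGGYYGSSSWFAY, held most IGHV2-3 counts of NOD-FMT 7 and NOD-FMT 10. It held 95359 counts in the LG of NOD-FMT 7, 27.9% of the library, and 14806 in NOD-FMT 10, 8.45%. Of these counts 99.7% and 99.0% were IgA. The bar plot of LG counts shows it beside all IGHV2-3 of each mouse, and the IGHV2-3 counts outside it in NOD-FMT 7 still made a larger share than IGHV2-3 did in any PBS-T or BCR control mouse. Of those outside it, 4018 were of AKPGYYGSSYGFAY, a clonotype of the same HCDR3 pattern. Clonotypes of this pattern, described below, together made 97.4% of the IGHV2-3 counts of NOD-FMT 7. In the spleens of NOD-FMT 7 and NOD-FMT 10 AKGGYYGSSSWFAY held 2921 counts (94.0% IgA) and 78 counts. Elsewhere it was found at 1 or 2 counts in the LG of NOD-FMT 1, 3, 4 and 8 and PBS-T 1 and 5 and at 1 and 3 counts in the spleens of PBS-T 4 and 5.

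The nucleotide HCDR3 of this clonotype is printed for both mice, to show where their main sequences differ. Capitals mark the base that differs, and the germline D segment is Ighd1-1.
NOD-FMT 7: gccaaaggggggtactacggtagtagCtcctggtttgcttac
NOD-FMT 10: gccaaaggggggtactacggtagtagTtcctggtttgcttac
Ighd1-1: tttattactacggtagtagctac
Ighj3: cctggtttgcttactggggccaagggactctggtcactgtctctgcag
The main sequences differed by the substitution C27T, counted from 1 at the first base printed and read from NOD-FMT 7 to NOD-FMT 10, which leaves the residue unchanged. The D match was 16 bases in NOD-FMT 7 and 14 bases in NOD-FMT 10. Including the V segment, NOD-FMT 7 held 675 and NOD-FMT 10 held 281 distinct sequences of the clonotype, of which 3 were found in both. The largest made 81.4% and 69.4% of the clonotype counts and was without mutation in each mouse. For the 3 sequences found in both, carry-over between libraries and true sharing cannot be told apart. Whether the mice held the same join was not tested.

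HCDR3 with AK, any residue, GYYGSS, any 2 residues and FAY, the pattern of this clonotype, were found with IGHV2-3 in the LG of 7 of 10 NOD-FMT, 5 of 9 PBS-T and 0 of 5 BCR control mice. The LG of NOD-FMT 1, 3 and 8 and PBS-T 1 held only 1 or 2 counts, where carry-over and true sharing cannot be told apart. In the spleen they were found in 10 of 10 NOD-FMT mice (median 52.5 counts), with 9 counts or fewer in NOD-FMT 1, 2, 5, 6 and 8. They were also found in the spleens of 9 of 9 PBS-T mice (median 273 counts, at least 49) and of 2 of 5 BCR control mice at 1 count. The pattern was defined from the clonotype and carries no test. A second clonotype of the pattern, AKPGYYGSSYGFAY, held 4018 counts (1.18%) in the LG of NOD-FMT 7, 559 in NOD-FMT 9, 130 in PBS-T 9 and 1 and 7 in PBS-T 1 and 7, and was present in 15 spleens, 7 of NOD-FMT, 8 of PBS-T and 0 of BCR control. Its HCDR3 was written by 23 nucleotide forms in the spleens, with 6 distinct main forms over the 15 spleens. The spleens of NOD-FMT 2 and PBS-T 2, 3, 7 and 8 had the main form of the LG of NOD-FMT 7. For such shared forms carry-over between libraries and true sharing cannot be told apart. Of the main forms, 3 are shown with no base marked.
NOD-FMT 7, LG: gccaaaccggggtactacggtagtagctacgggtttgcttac
NOD-FMT 10, spleen: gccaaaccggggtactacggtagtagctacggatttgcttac
PBS-T 4, spleen: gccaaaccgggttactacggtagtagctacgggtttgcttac
The Ighd1-1 match was 18, 18 and 19 bases in these forms.

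Other large LG clonotypes of the members reached a large share in 1 mouse each. ARKNWDWYFDV (IGHV2-2, IGHJ1) held 9256 counts, 3.50% of the LG library of NOD-FMT 2, and was 100% IgA there. Its other LG counts were 227 in NOD-FMT 7, 15 in PBS-T 5 and 1 in NOD-FMT 10. It was present in 16 spleens at a median of 3 counts, and in 7 with shared sequences removed. ARWWLLGAMDY (IGHV2-2, IGHJ4) held 11004 counts, 3.05%, in PBS-T 5 and was 98.7% IgG. It was the member clonotype found in most LG libraries, 11 of 24, at 16 counts or fewer in the other 10. These 11 libraries had the same main nucleotide form, so carry-over between libraries and true sharing cannot be told apart. ARNPSIPSYYAMDY (IGHV2-2, IGHJ4) held 961 counts, 2.37%, in PBS-T 3, mostly IgG. AKSYFDY (IGHV2-3, IGHJ2) held 5227 counts, 2.14%, in NOD-FMT 1, all IgA, with 519 counts in the spleen of that mouse.

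With shared sequences removed, the clonotypes found in most LG libraries after ARWWLLGAMDY held few counts. A clonotype of IGHV2-3 and IGHJ4 with 16 residues was found in 6 LG libraries with 47 counts in all, and AKMNEGFAY (IGHV2-5, IGHJ3) in 5 with 476. In the spleen, by contrast, AKRGSSYAMDY and AKRGSNYAMDY (IGHV2-9, IGHJ4) and ARNWDY (IGHV2-2, IGHJ2) were present in all 24 mice as deposited. With shared sequences removed AKRGSNYAMDY and ARNWDY were present in 22, AKRGSSYAMDY in 24, and ARWWLLGAMDY in the LG in 9. AKRGSSYAMDY was written by 60 nucleotide forms and was 96.0% IgM.

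Between tissues, 2 of 6 members were called lower in the LG than in the spleen of the same mouse (edgeR, mouse as block), where 45.5% of 123 genes were called and 21.1% were lower. IGHV2-6 had a log2 fold change of -0.78 (SE 0.27, edgeR adjusted p = 0.0161). IGHV2-2 had -0.34 (SE 0.14, adjusted p = 0.0498), and leaving out any of 18 of the 24 mice lost this call. The other members ranged from -0.32 for IGHV2-5 (adjusted p = 0.179) to 0.11 for IGHV2-4 (adjusted p = 0.814). The median over the members was -0.19, beside -0.0027 over all genes. Of the 13 IGHV5 genes tested 5 rose and 2 fell in the LG, and of the 7 other IGHV2 genes 3 rose. Within groups 1 of 6 members was called in NOD-FMT, 0 in PBS-T and 0 in BCR control mice (38.2%, 25.2% and 10.6% of all genes), and the tissue effect of NOD-FMT against that of PBS-T was called for 0 of 6 members, beside 3.25% of all genes. The 2 calls depended on the definition of a clonotype and of a gene. With sequences assigned to the nearest GRCm38 gene, 0 of 6 members were called (42.9% of genes, 20.2% lower). This assignment moves the IGHV2-6-1 calls to Ighv2-6 and 55.5% of the sequences called IGHV2-6 to Ighv2-6-8. Ighv2-6 then stood at -0.22 and Ighv2-6-8 at -0.46 (edgeR adjusted p = 0.21). Without near neighbours of larger clonotypes 0 of 6 were called (45.5%, 17.9% lower), with IGHV2-6 at -0.52 and IGHV2-2 at -0.21, and for IGHV2-2 the p came from the Poisson bound that edgeR sets on low variances. With clonotypes of at least 2 counts 4 of 6 were lower (38.4%, 20.2% lower), led by IGHV2-9 at -1.47. By counts all 6 were lower in the LG, from -1.71 for IGHV2-2 to -5.14 for IGHV2-4, where 76% of genes were called and 69.6% were lower.

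Pairing with the J segments differed between the members and all other IGHV genes pooled. In the spleen IGHJ2 was joined to 16.8% ± 0.899 of member clonotypes and to 35.0% ± 0.988 of the clonotypes of all other IGHV genes (SD, n = 24), lower in 24 of 24 mice (sign-flip permutation test, adjusted p = 2e-05 over 18 tests, from the smallest p that 100000 resamples can give). IGHJ4 was joined to 41.0% ± 1.61 against 25.7% ± 1.24, higher in 24 of 24 mice, and IGHJ3 to 27.0% ± 1.27 against 24.1% ± 0.647, also higher in 24 of 24 (adjusted p = 2e-05 for each, permutation test). The higher IGHJ3 share of the pooled members did not hold for every member, as given below. IGHJ1 took 15.1% and 15.2% (adjusted p = 0.627, permutation test), and by counts it was 6.88 percentage points higher in the members (adjusted p = 0.00596, permutation test). In the LG IGHJ2 was again lower in 24 of 24 mice, 14.9% ± 8.34 against 35.2% ± 3.73, and IGHJ4 higher in 20 of 24, 38.6% against 23.5%. The IGHJ3 difference in the LG, 30.4% against 23.1%, was higher in only 16 of 24 mice (adjusted p = 0.0317, permutation test), and it lost the call without NOD-FMT 7 (5.61 percentage points) or NOD-FMT 10 (5.66), or without PBS-T 2, 4, 6 or 7.

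**Figure D4:**
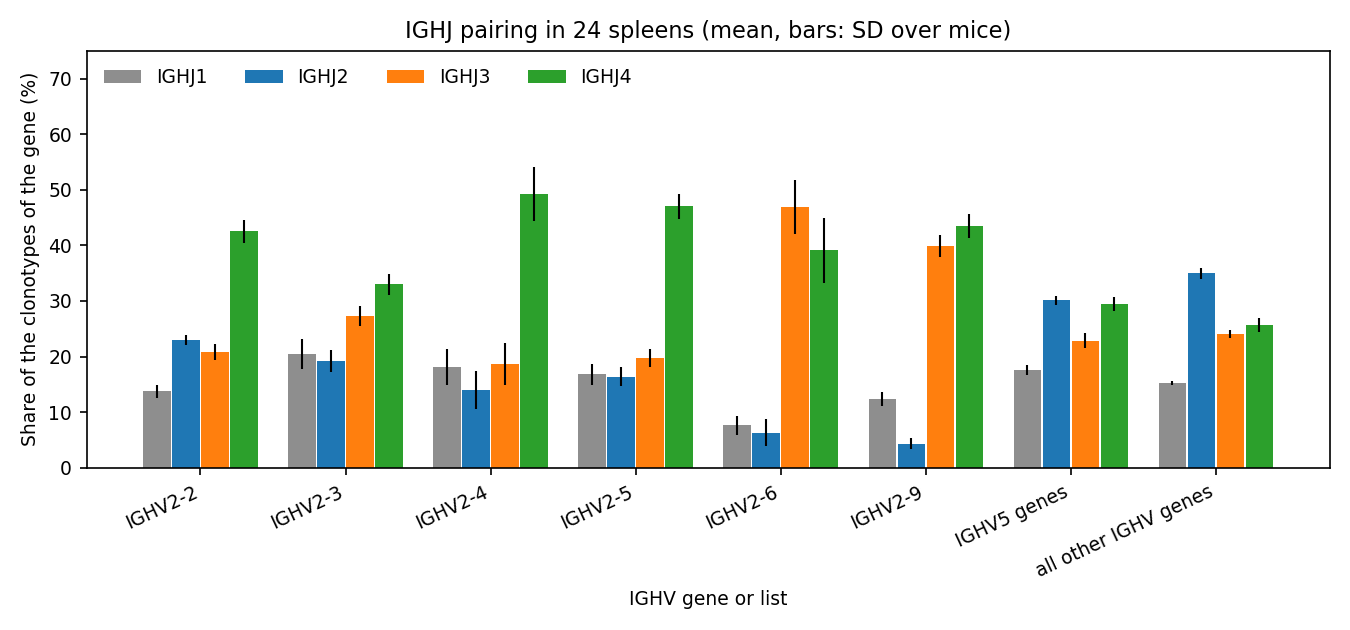
Percent of the clonotypes of each member, of the IGHV5 genes and of all other IGHV genes (x axis) joined to IGHJ1 to IGHJ4 (y axis), as means over 24 spleens with bars for the SD. IGHJ2 falls to 4.18% for IGHV2-9 and 5.80% for IGHV2-6 over all spleen clonotypes, beside a median of 34.3% over genes.

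Members differed among themselves, as the bar plot of J pairing shows. Over the 97 genes with at least 500 spleen clonotypes, IGHV2-9 had the lowest IGHJ2 share, 4.18% of 24689 clonotypes, and IGHV2-6 the second lowest, 5.80%, against a median of 34.3%. IGHV2-6 had the highest IGHJ3 share, 46.1%, and IGHV2-9 the second highest, 39.6%, against a median of 22.8%. IGHJ3 lay below that median for IGHV2-2 (20.6%), IGHV2-5 (19.96%) and IGHV2-4 (18.95%). IGHV2-4 had the 3rd highest IGHJ4 share, 49.7%, with IGHV2-5 at 47.1% and IGHV2-2 at 42.5% (median 26.7%). IGHV2-3 had 18.9% IGHJ2, 27.4% IGHJ3 and 33.2% IGHJ4. Low IGHJ2 shares were also seen outside the members, 6.04% for IGHV3-3 (the third lowest), 9.18% for IGHV2-7 (534 clonotypes), 12.4% for IGHV5-2, 14.02% for IGHV2-6-1 and 26.5% for IGHV2-9-1. IGHV3-3 had the highest IGHJ4 share, 62.3%, IGHV2-6-1 the second highest, 53.5%, and IGHV2-9-1 had 36.1%.

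The HCDR3 ends moved the same way. They were read without the J call but come from bases that the call also rests on, so they are no separate evidence. The residues FDY of the IGHJ2 germline ended 2.65% of IGHV2-9, 4.24% of IGHV2-6 and 17.4% of IGHV2-2 clonotypes and 22.3% of those of all other genes. FAY of IGHJ3 ended 31.97% of IGHV2-9 and 38.4% of IGHV2-6 clonotypes, beside 19.4% of the others. MDY of IGHJ4 ended 47.5% of IGHV2-4 clonotypes and 24.4% of the others.

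For the 2 genes behind the IGHV2-6 call the pairing diverged. Clonotypes nearest to Ighv2-6-8 joined IGHJ3 in 63.3% and IGHJ2 in 2.17% of 5577 cases, and those nearest to Ighv2-6 joined IGHJ4 in 53.0%, IGHJ3 in 24.2% and IGHJ2 in 10.4% of 4456. Clonotypes called IGHV2-6-1 and nearest to Ighv2-6 had 53.5%, 14.4% and 14.03%. The high IGHJ3 share of the call thus belonged to Ighv2-6-8, which differs from Ighv2-9 at 7 bases of the segment.

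Member HCDR3 were slightly longer in the spleen, 11.77 ± 0.172 residues against 11.50 ± 0.179 for all other genes (SD, n = 24), longer in 24 of 24 mice (adjusted p = 2e-05, sign-flip permutation test). IGHV2-6 had the shortest, 11.1 ± 0.256, and IGHV2-5 the longest, 12.1 ± 0.214. Against the IGHV5 genes alone, at 11.88, the difference turned to -0.11 residues. Length went with the J segment. IGHV2-2 HCDR3 averaged 12.6 residues with IGHJ1, 12.5 with IGHJ4, 10.99 with IGHJ2 and 11.1 with IGHJ3. In the LG the values were 12.1 and 11.6 (adjusted p = 0.0044, permutation test), and against the IGHV5 genes the LG difference was 0.095 residues and was not called.

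By isotype, members held IgA less often and IgM more often than all other genes when clonotypes were counted. In the LG 60.2% ± 21.0 of member clonotypes held IgA, against 75.2% ± 16.3 (SD, n = 24), lower in 20 of 24 mice, and 29.2% held IgM against 16.1%, higher in 21 of 24 (adjusted p = 2e-05 and 4.9e-05, sign-flip permutation test). Weighed by counts, the LG differences were -2.16 percentage points for IgA and 2.46 for IgM, and neither was called. With clonotypes of at least 2 counts the IgA difference kept its direction and call, and that of IgM was 2.90 and not called. In the spleen IgM was 81.1% against 77.6%, IgA 2.46% against 3.44% and IgG 3.31% against 3.82%. IgM was higher in 24 of 24 spleens, IgA lower in 22 and IgG lower in 17 (adjusted p = 2e-05, 2e-05 and 0.0028, permutation test). Against the IGHV5 genes alone the spleen IgM difference was 0.743 percentage points (adjusted p = 0.147, permutation test). By counts the 3 spleen differences from all other genes kept their direction and call. IgG in the LG did not pass the threshold, 12.3% against 11.2% (adjusted p = 0.365, permutation test).

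A clonotype was taken as unmutated where any of its sequences was without mutation, whereas values by counts weigh each sequence by itself. Unmutated clonotypes made 88.7% of member clonotypes in the spleen against 80.9% for all other genes, higher in 24 of 24 mice. In the LG they made 63.5% against 52.6%, higher in 19 of 24 (adjusted p = 2e-05 for the spleen and 0.0003 for the LG, permutation test). The LG difference was 5.70 percentage points with clonotypes of at least 2 counts, -2.19 by counts and -1.35 against the IGHV5 genes, and none of these was called. The IGHV5 neighbours stood at 88.7% in the spleen, and the difference from them was -0.016 percentage points (adjusted p = 0.972, permutation test). By isotype the members in the spleen were unmutated in 90.7% of IgD, 33.5% of IgA and 36.5% of IgG sequences. In the LG 35.4% of IgA and 75.9% of IgM sequences were unmutated.

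By clonotypes of any size, NOD-FMT and PBS-T did not pass the threshold for the isotype or mutation of the members, and by counts they did in the LG. These p-values are not adjusted, and no values of the other IGHV genes are set beside them. A difference across the whole library therefore cannot be told apart from a difference of the members. Nor can LG depth, higher by median in NOD-FMT, be told apart from group by counts or with a cut at 2 counts. IgA made 25.0%, 65.7% and 94.1% of member clonotypes in the LG of NOD-FMT mice (lowest, median, highest), 30.6%, 43.3% and 80.6% in PBS-T and 60.0%, 66.7% and 77.1% in BCR control mice. The values of the groups overlapped (NOD-FMT against PBS-T 12.4 percentage points, exact permutation test, p=0.247). By counts after the same filter the difference was 21.4 percentage points (exact permutation test, p=0.0207), and with clonotypes of at least 2 counts it was 17.3 (p=0.00222, exact permutation test). In the spleen IgA made 1.05%, 1.72% and 3.69% in NOD-FMT and 1.81%, 2.81% and 4.83% in PBS-T (difference -0.846 percentage points, exact permutation test, p=0.073). Leaving out NOD-FMT 2, NOD-FMT 7 or PBS-T 3 brought this below the threshold, at -1.01, -1.03 and -0.98.

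Unmutated clonotypes made 54.4%, 71.0% and 81.3% of member clonotypes in the LG of NOD-FMT mice (lowest, median, highest), 42.9%, 67.3% and 84.6% in PBS-T and 34.5%, 44.4% and 60.0% in BCR control mice. NOD-FMT and PBS-T differed by 4.57 percentage points in the LG (exact permutation test, p=0.373) and by 0.654 in the spleen (p=0.743, exact permutation test). By counts the LG difference was 18.2 percentage points (p=0.0246, exact permutation test). The BCR control median in the LG lay below every NOD-FMT mouse and the ranges overlapped, a comparison that was not tested. In spleen IGHV2-3 counts as deposited, IgA made 0.252%, 2.23% and 34.0% in NOD-FMT, 6.59%, 14.2% and 19.2% in PBS-T and 1.18%, 1.49% and 6.17% in BCR control mice, with the highest value in NOD-FMT 7, the mouse of the large IgA clonotype.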

How the data were processed

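Total RNA of LG and spleen was reverse transcribed with constant region primers that carry unique molecular identifiers and amplified with V gene primers. Per the study's methods, the authors merged read pairs, collapsed reads by identifier without singletons, assigned constant genes from IMGT and V, D and J genes with IgBLAST, and kept productive sequences. The deposited files hold, for each distinct sequence and isotype, a duplicate count (a raw count of collapsed molecules) and, as another value given by the authors, the number of V mutations against the assigned allele. Files marked merged in the labels of some LG libraries were used as they are.

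Members and lists were chosen with earlier results of these data known. Named items followed a rule: the 6 members, the other IGHV2 and the IGHV5 genes as lists, the 3 genes with the most similar spleen usage, and in each tissue the 3 clonotypes held by most mice and the 5 with the largest share of an LG library. Other clonotypes are named as chosen after their values were seen.

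Sequences identical in 3 or more mice of a tissue were removed (carry-over between libraries and true sharing cannot be told apart), and clonotypes per gene were tested with edgeR 4.0.16 in R 4.3.3 (quasi-likelihood F test, offset of total clonotypes, genes with at least 20 clonotypes over the fit, Benjamini-Hochberg adjustment, threshold 0.05). All groups of a tissue entered the fit. LG and spleen were compared with mouse as a block, taking equal replicate numbers of a group as the same mouse. The study compares LG and spleen within mice, and the labels give replicate numbers without naming mice. Single values were compared with two-sided exact permutation tests, members and other genes within mice with sign-flip tests of 100000 resamples (Python 3.11.15, scipy 1.17.1), and log2 shares used a pseudocount of 0.5 clonotypes. LG means took mice with at least 10 member clonotypes. DESeq2 1.42.0 was an alternative. Equal numbers of NOD-FMT and PBS-T mice were not taken as pairs in the main fits. Scripts were tested on simulated data. Counts limit the precision, most of all in the LG, where libraries began at 560 clonotypes.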

Additional observations from a re-analysis of the deposited data

Results flagged for a closer look

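Among 84 sets of values (a member or the family, a tissue, a group, by clonotypes or by counts) 18 had a library far from the rest of its group, in 12 libraries of 10 mice. Chance alone flags about 1 in 20 groups, and skewed values such as LG counts are flagged more readily.

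By clonotypes, IGHV2-4 stood at 0.527% in the LG of NOD-FMT 3 (next 0.15%). In the spleen IGHV2-2 stood at 2.226% in PBS-T 6 (next 1.83%), IGHV2-3 at 1.542% in NOD-FMT 2 (next 1.06%) and IGHV2-6 at 0.3581% in PBS-T 7 (next 0.294%).

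By counts in the LG, NOD-FMT 7 stood apart for IGHV2-3 at 29.91% (next 9.78%), for the family at 31.2% (next 11.2%) and for IGHV2-6 at 0.333% (next 0.128%). IGHV2-2 stood at 5.228% in NOD-FMT 2 (next 0.968%), most of it the IgA clonotype ARKNWDWYFDV at 3.50%. IGHV2-4 stood at 0.7032% in NOD-FMT 3 (next 0.0366%) and at 0.02117% in BCR control 5 (next 0.00348%), and IGHV2-9 at 1.289% in NOD-FMT 6 (next 0.541%). PBS-T 5, the deepest LG library, stood apart for IGHV2-6 at 0.1416% (next 0.051%) and IGHV2-9 at 1.05% (next 0.256%), and PBS-T 9 for IGHV2-5 at 1.443% (next 0.684%).

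By counts in the spleen, IGHV2-2 stood at 2.332% in BCR control 4 (next 1.49%). IGHV2-5 stood at 0.9677% (next 0.461%) and IGHV2-6 at 0.7125% (next 0.328%) in BCR control 5, and IGHV2-9 was low in PBS-T 6 at 0.1696% (next 0.696%).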

How the results depend on the processing

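Usage called 0 of 6 members between groups under every alternative run, except IGHV2-3 by counts in the spleen of NOD-FMT against BCR control, 1 member. Between tissues the 2 called members became 1 with shared sequences kept, 1 with edgeR's default filter, 6 with counts, 4 with clonotypes of at least 2 counts, 1 with thinned libraries, 0 without near neighbours of larger clonotypes, 0 with the nearest GRCm38 gene (the last 2 chosen after seeing the data) and 1 with no replicate block. Without single mice 1 to 2 were called, IGHV2-6 in 24 of 24 fits. IGHV2-9 in the spleen, NOD-FMT against PBS-T, turned to 0.28 (log2) by counts. The cause was not tested for these or the changes that follow, apart from what the construction of an alternative fixes.

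The family share of NOD-FMT against PBS-T in the LG was -0.4303 with the replicate block, which pairs equal numbers and so leaves out NOD-FMT 10, -0.7581 with clonotypes of at least 2 counts and 0.0926 by unfiltered counts, and -0.4333 to -0.2585 without single mice. In the spleen it turned to 0.2247 by counts and 0.3819 unfiltered. LG IgA came to 21.43, 24.06 (unfiltered) and 17.27 (at least 2 counts) percentage points, and spleen IgA to -0.9233 with the replicate block and -1.028 to -0.6039 without single mice. LG unmutated share came to 18.16 by counts and 17.53 unfiltered, and the spleen value ran from -0.2411 (without PBS-T 6) to 1.95. The replicate block changed no other call. Deviations of equal numbers correlated at -0.299 to 0.146 in the LG and -0.645 to 0.719 in the spleen, over 9 pairs each. With so few pairs these values cannot decide whether mice of equal number are related.

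Against all other genes, counts gave -2.159 (IgA), 2.458 (IgM), -0.3189 (IgG), -2.19 (unmutated) percentage points and 0.6845 residues in the LG, and 6.875 points of IGHJ1 in the spleen. Clonotypes of at least 2 counts gave LG values of 2.898 (IgM), 5.699 (unmutated), 0.6732 (IGHJ1) and 7.535 (IGHJ3). IgM unmutated sequences gave 0.5646 residues, -8.396 (IGHJ1) and 3.618 (IGHJ3) in the LG and -0.4168 (IGHJ1) in the spleen. Against IGHV5 genes the values were -1.352 (unmutated) and 0.09517 residues in the LG, and 0.7431 (IgM), -0.0157 (unmutated), -0.1075 residues and -2.374 (IGHJ1) in the spleen. Without single mice LG IGHJ3 ran from 5.61 to 8.159 and spleen IGHJ1 from -0.1976 to 0.02152 (without PBS-T 6). The lower IGHJ2 and higher IGHJ4 shares kept direction and call in both tissues under every alternative run.

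Unmutated IGHV2-3 IgM in the spleen, added after seeing the data, gave for NOD-FMT against BCR control -20.64 unfiltered, -28.87 with at least 2 counts, and -22.65 to -19.27 without single mice, with the call gained in 1 of 15 fits. For PBS-T it gave -16.32 without the AKQ form, -20.61 by counts, -4.011 by clonotypes and -20.09 to -18.02 without single mice. LG depth limits every LG value, and a spread of SE up to 1.13 on the log2 scale leaves large LG differences undetected.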
